A study of Salmo salar with 34 samples.

Results

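The 200 probes described here gave a signal above the background in some Atlantic salmon and not in others. They were chosen from 14841 non-control probes on arrays of salmon midgut RNA. A probe was counted as detected on an array where the scanner software marked its spot as well above the background. The 1891 probes detected on 10 to 24 of the 34 arrays were taken first, and the 200 of them with the highest mean signal over the arrays where they were detected are the members. Both choices used measured values over all fish and no group label, so the number of fish with detection and the brightness are given as descriptions.

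RNA was from the midgut of post smolts held in sea water, 1 fish per array, after 12 weeks on diets with trace minerals in an inorganic (IM) or an organic (OM) form. The fish fell into high IM (6 fish, 4 females and 2 males), low IM (8 fish, 5 females and 3 males), high OM (9 fish, 3 females and 6 males) and low OM (11 fish, 6 females and 5 males). All groups had been through the same handling stress and lowered oxygen late in the trial. Fish shared tanks, their tanks are not named in the labels, and which of the 4 doses of each source were called high and low is not given there either.

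A microarray probe is a short DNA strand that binds the labelled copies of 1 transcript, and its brightness follows the amount of that transcript in the sample. A transcript can be present in some individuals and missing in others because of genetic variants, sex, immune state or the cells caught in the biopsy. A dim transcript can also cross the detection limit when the brightness of the whole array changes. The midgut is lined by absorbing enterocytes and mucus-secreting goblet cells, holds many immune cells and lies close to pancreatic tissue in salmon.

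None of the probe identifiers was matched to a gene (0 of 14841, in a table of 65341 genes), so members are given by identifier, and no sequence of the probes was used here. The identifiers start with Ssa# or Omy#. Those starting with Omy# made up 18.5% of the members (37 of 200), 11.6% of the other 1691 probes detected on 10 to 24 arrays and 8.71% of all probes.

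The signal used throughout is the log2 of the background-subtracted brightness minus the 75th percentile of the same array, so 0 is the 75th percentile. That percentile lay between a brightness of 87.9 and 863, and 8786 to 13682 probes were detected per array. The lowest signal with detection also differed between arrays, from -6.87 in low OM male 4 to -3.90 in high IM female 1. The same signal could thus be detected on some arrays and not on others, and an undetected member is not shown to be absent. There were 7 slides and 2 scan days. The first day held 12 females and no male, and the second day held 6 females and 16 males. In a part of the members 5 fish stood apart, high OM females 3, 4 and 5, low IM male 5 and low OM male 6, and low IM male 5 and low OM male 3 stood apart in 9 others (described with their values below). Undetected spots often shared 1 lowest value per array, from 2 undetected members in 3 low OM males to 114 of 181 in high IM female 1, and such values have no order.

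Most members were dim even where they were detected. Their mean signal over those arrays had a median of -3.77 (lowest -3.97, highest 2.54), and 172 of the 200 lay at or under -3. On the arrays without detection the median of the mean signal was -6.21. The difference between detected and undetected arrays had a median of 2.52 log2 units and ranged from 1.36 to 10.2. Of the members, 110 were detected on 20 to 24 arrays, 38 on 16 to 19 and 52 on 10 to 15. The limit of 200 cut through probes of nearly equal brightness. The last members, Ssa#S48420070 and Ssa#S30290683, had a mean of -3.97, and the first probes outside, Ssa#TC96679 and Omy#S19712244, had means of -3.97 and -3.98. The detection limits also cut through a continuous range, with 27 members detected on 24 arrays and 26 probes of the same brightness detected on 25.

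**Figure D1:**
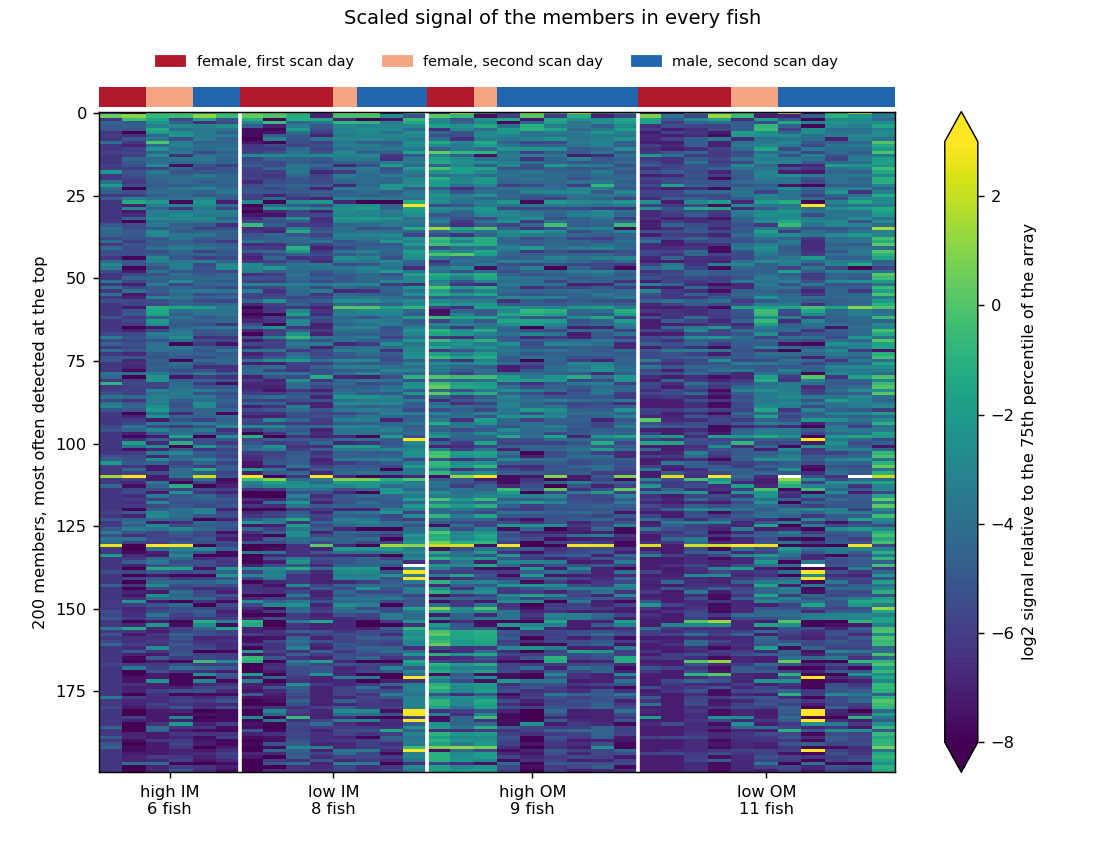
Scaled signal of the 200 members (rows, most often detected at the top) in the 34 fish (columns, by diet group, with sex and scan day as a colour bar); the colour scale is log2 relative to the 75th percentile of the array. Few members reached the signal of the 75th percentile, and columns of females scanned on the first day were the darkest.

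A gap between the signals with and without detection was found in a minority, and most of these gaps were small. In 18 members the lowest signal with detection was above the highest without it, by more than 1 log2 unit in 7 and by more than 2 in 3. Over the 18 the gap had a median of 0.70 log2 units and was as small as 0.088. In the other 182 the signals with and without detection overlapped. Among the other 1691 probes detected on 10 to 24 arrays, 3 had such a gap. These counts follow in part from the choice of bright members and carry no test.

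The brightest member and the one with the widest gap was Ssa#S47729521, detected in 17 of 34 fish. Its background-subtracted brightness was 144 to 6591 in those fish and 1.02 to 4.72 in the other 17, with no fish between. In the scaled signal the gap was 5.94 log2 units. It was detected in 3 of 6 high IM, 3 of 8 low IM, 5 of 9 high OM and 6 of 11 low OM fish. On and off fish thus occurred in every group. It was on in 11 of 18 females and 6 of 16 males, while a value was present for it in the table of the authors more often in males, by 27.1 percentage points. Females of both scan days were among them, with 7 of 12 on the first day and 4 of 6 on the second.

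Ssa#S18836686 ranked next in brightness and was detected in 19 fish, 5 of 6 high IM, 2 of 8 low IM, 4 of 9 high OM and 8 of 11 low OM. Its log2 signal ran from -6.42 to 5.07 where detected and up to -4.98 where not, so its ranges overlapped. Its spots in low OM males 2 and 5 were marked as outliers and carry no signal value here. Ssa#S29966060 was detected in 24 fish, with 4 of 6, 6 of 8, 7 of 9 and 7 of 11 in the same order of groups. Its lowest signal with detection was -3.78 and its highest without was -5.51. Ssa#S31998488, with the third widest gap, was detected in 23 fish and was off in 1 of 9 high OM, 3 of 11 low OM, 3 of 6 high IM and 4 of 8 low IM fish. None of these members passed the criteria for a change with the mineral level, and all of them were on in some fish and off in others of every group.

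**Figure D2:**
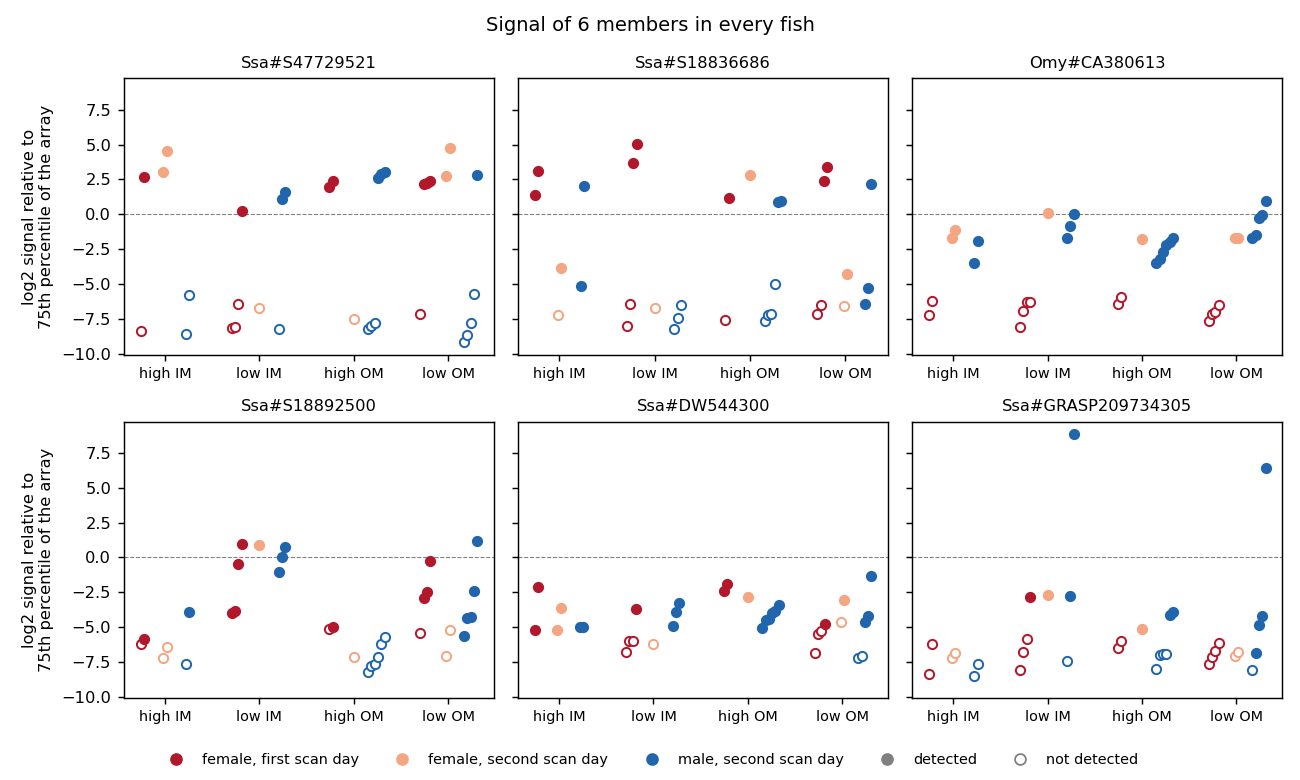
Scaled log2 signal of 6 members in the 34 fish, without 2 outlier spots of Ssa#S18836686, by diet group (x axis), with colours for sex and scan day; filled points were detected and open points were not, and the dashed line at 0 is the 75th percentile of the array. Ssa#S47729521 split into on and off fish in all groups, Omy#CA380613 was off in all 12 females of the first day, and 2 male fish carried the high values of Ssa#GRASP209734305.

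The number of members detected per fish ranged from 19 in high IM female 1 to 188 in low OM male 6, with a mean of 111 (SD 51.3, n = 34). High IM fish had 104.5 members detected (SD 48.0, n = 6, range 19 to 158), and low IM fish had 106.9 (SD 49.7, n = 8, range 34 to 171). High OM fish had 128.4 (SD 30.4, n = 9, range 88 to 168), and low OM fish had 103.7 (SD 68.6, n = 11, range 27 to 188). The groups overlapped over most of their range. High IM female 1, with the fewest members, also had the fewest probes of any kind detected (8786), and low OM male 6 had 13165.

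**Figure D3:**
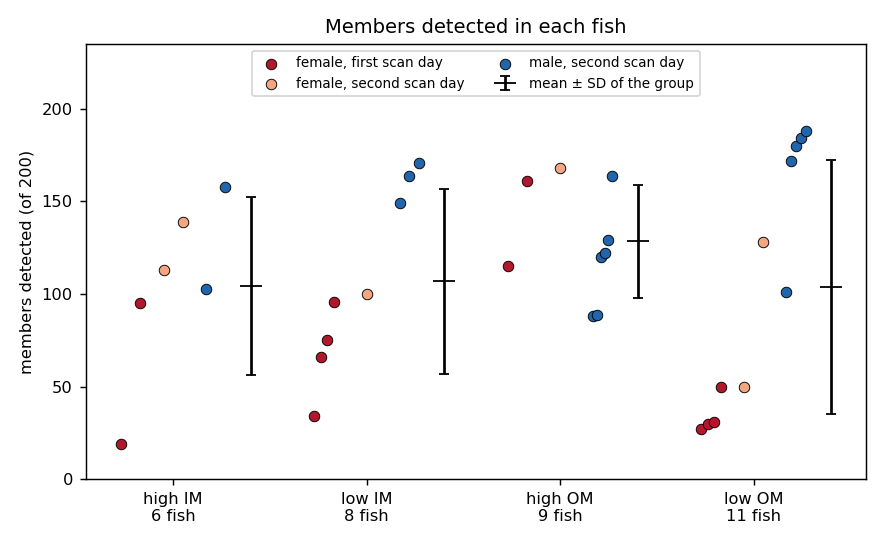
Number of the 200 members detected in each fish, by diet group (x axis), with colours for sex and scan day and the mean and SD of each group beside it. Females of the first scan day were mostly low, from 19 to 161 members, and males of the second day lay between 88 and 188.

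In 57 members (28.5%) the signal of high OM females 3, 4 and 5, low IM male 5 and low OM male 6 was above that of each of the other 29 fish, and all 57 were detected in all 5. The median signal over the 57 members was -0.88, -2.25, -1.66, -2.69 and -0.53 in these fish in that order, and -6.91 to -4.39 in the other 29. The lowest of the 5 exceeded the highest of the 29 by a median of 1.14 log2 units (0.13 to 2.18), and the means differed by a median of 4.06 (2.45 to 7.15). No member was lower in all 5. These fish were chosen after the values were seen, and the comparison is a description.

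The same 5 fish were the highest for 14.6% of all probes detected on 10 to 24 arrays (277 of 1891), 6.20% of all probes (920 of 14841) and 2.28% of those detected on every array (173 of 7597). Members were chosen by their mean signal where detected, which very bright fish raise. The larger share among the members therefore follows in part from the choice. In the authors' own processed values, 48 of the 57 members were also highest in these fish. The 75th percentile of brightness was 90.4 to 225 in the 5 fish and 87.9 to 863 in the others. The local background had a median of 16 to 24 in both. Before scaling, the median brightness of the 57 members was 14.96 to 156 in the 5 fish and 1.78 to 29.4 in the others. The fish came from 3 diet groups, both sexes and both scan days.

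The largest difference among the 57 was that of Ssa#EG871931, named after its values were seen and detected in 10 fish. Its signal was -0.49 to 1.11 in the 5 fish, and -8.62 to -2.39 in the others with a median of -7.09. Over the other 143 members the 5 fish had a median signal of -4.47 to -3.10 against -6.43 to -3.87, with the 3 high OM females inside the range of the rest. Whether the 5 fish differed in the cells sampled, in RNA or in handling was not tested.

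**Figure D4:**
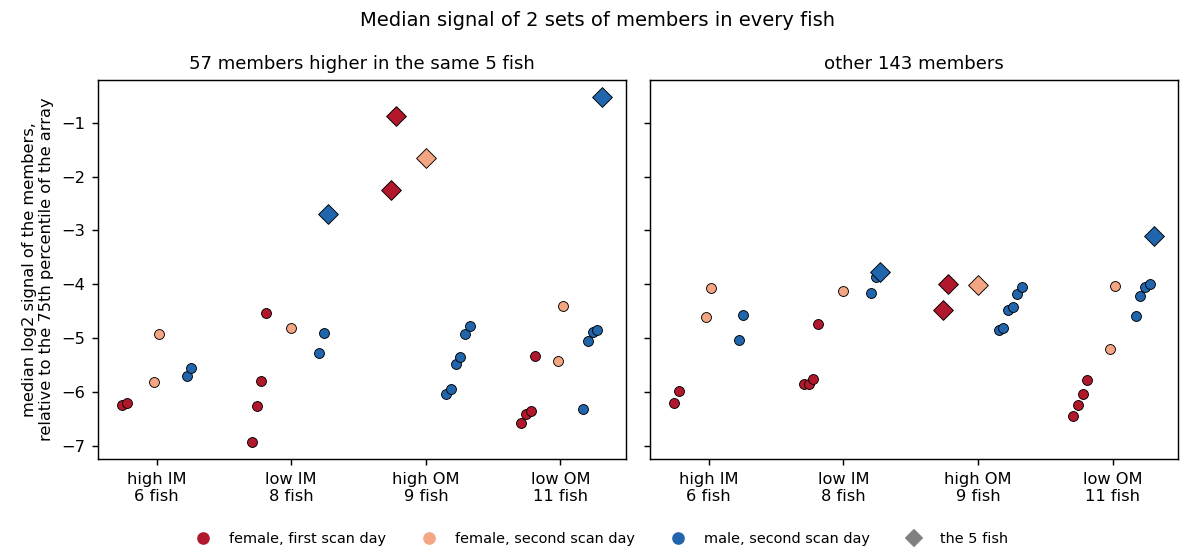
Median scaled log2 signal of the 57 members that were highest in the same 5 fish (left) and of the other 143 members (right), in each fish by diet group, with colours for sex and scan day and diamonds for the 5 fish. The diamonds lay between -2.69 and -0.53 on the left, above all other fish, and between -4.47 and -3.10 on the right.

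A further 9 members had a different pattern, with very bright signals in low IM male 5 and low OM male 3 alone. They belonged to 25 probes that were at least 6 log2 units above the median of the other 32 fish in both, a rule set after the values were seen. Their signal was 6.85 to 9.18 in low IM male 5, where they ranked between 8 and 95 among all probes of the array. It was 4.85 to 7.05 in low OM male 3, with ranks of 83 to 312. In no other fish did any of the 9 exceed -1.55. The brightest, Ssa#S30272201, had a brightness of 55065 and 42610 in these fish, and its highest log2 signal in the others was -2.60. The 9 were detected in 10 to 23 fish, so most fish with detection were far dimmer than these males. Their mean signal where detected, by which members were chosen, rested in part on these males. In bulk tissue, fewer or more cells of a type and less or more RNA per cell cannot be told apart.

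The first comparison asked whether the mineral level changed how often the members were detected. Single members differed in both directions, at shares close to those of the 1891 probes, and none passed after adjustment over all probes. Detection was compared by a two-sided Fisher's exact test over the 6826 probes detected on 1 to 33 arrays. At an unadjusted p under 0.05, 7 members (3.5%) were detected more often in high fish, against 1.44% of all probes tested and 3.75% of the 1891. Toward low fish there were 3 (1.5%), against 0.747% and 1.32%. After Benjamini-Hochberg adjustment 0 members and 0 probes passed (0%), against 10 members at an unadjusted p under 0.05. Over all members the difference in the share of fish with detection had a median of 9.82 percentage points toward high, against 4.91 over all 1891 probes. More often detected in high were 127 members, with 73 more often in low, and 1163 of the 1891 probes.

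The difference between high and low fish changed direction between parts of the fish. Within OM 15 members were more often detected in high fish (1.46%, and 3.33% of the 1891). Within IM 6 were more often detected in low fish (0.369% and 0.793%). In females 47 were more often detected at the high level (8.59% and 16.6%), and in males 28 at the low level (6.41% and 11.3%). Among the 4 high and 8 low fish of the first scan day 10 were more often in high (0.956% and 2.75%). Among the 11 and 11 of the second day 8 were more often in low (2.19% and 3.17%). Leaving out single fish also moved the count of 10, given here without the share of all probes called in the same fits. It was 29 without high IM female 1 and 20 without high OM male 5. It was 17 without low OM female 6 or low OM male 5, and 16 without low IM male 2, low OM male 2, low OM male 4 or low OM male 6.

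Ssa#S18892500 had the smallest p for the level among the members, and was lower at the high level. It was detected in 2 of 6 high IM and 8 of 8 low IM fish, and in 1 of 9 high OM and 8 of 11 low OM fish (3 of 15 against 16 of 19 in all, two-sided Fisher's exact p = 0.000343, adjusted p = 1). In IM its signal was -7.67 to -3.88 with a median of -6.33 at the high level, and -4.01 to 0.95 with a median of -0.19 at the low level. The 2 IM groups overlapped only between -4.01 and -3.88. In OM it was -8.24 to -5.00 with a median of -7.13 at the high level, and -7.10 to 1.16 with a median of -4.26 at the low level.

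The signal of Ssa#S18892500 fell by 5.38 on the log2 scale in IM (SE 0.988, limma adjusted p = 0.0219). In OM it fell by 3.14 (SE 0.823, limma adjusted p = 0.0533), and over both sources by 4.26 (SE 0.643, limma adjusted p = 0.000355). It passed the criteria in all 34 fits that left out 1 fish each. The difference was seen on both scan days, with detection in 2 of 4 high and 7 of 8 low fish on the first and in 1 of 11 and 9 of 11 on the second. Without the 5 fish that stood apart the falls were 5.25 in IM and 3.68 in OM. The high OM fish left were then all males of the second scan day.

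Of the members detected more often at the high level, Ssa#DW544300 had the smallest p. It was detected in all 15 high fish and in 9 of 19 low fish (two-sided Fisher's exact p = 0.000727, adjusted p = 1). Its signal was -5.20 to -1.93 with a median of -4.02 at the high level, and -7.19 to -1.31 with a median of -4.91 at the low level, so the groups overlapped widely. Ssa#DW578432 was detected in 10 of 15 high and 3 of 19 low fish (p = 0.00424 by the same exact test, adjusted p = 1). Ssa#DN139054 was detected in 6 of 15 high and 16 of 19 low fish (exact p = 0.0120, adjusted p = 1). In OM its log2 signal fell by 1.83 (SE 0.581, limma adjusted p = 0.0932; 0.077 higher with normexp), from a median of -3.90 at the low level to -6.17 at the high level.

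The signal itself was compared over 12885 probes with limma, a linear model with moderated variances. A probe was called where its mean changed by more than 0.807 log2 units in either direction and its unadjusted p was under 0.05, the thresholds in the methods of the study. In IM 0 members rose (1.26% of all probes were called in that direction) and 16 fell (4.11%, and 6.61% of the 1891), and 1 passed at an adjusted p under 0.05 (0.380%), Ssa#S18892500. In OM 15 rose (5.00%, and 9.15% of the 1891) and 4 fell (1.96%), and 0 passed after adjustment (0.885%). Over both sources 4 rose (1.81%) and 13 fell (2.31%), and 4 passed after adjustment (8.46%), or 2% of the members. The difference between the responses in IM and OM passed for 0 members and 0 probes after adjustment (0%), with 13 members at an unadjusted p under 0.05 (3.39% of all probes, 6.03% of the 1891).

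These counts were sensitive to single fish. The changed counts are given without the share of all probes called in the same fits. They show how far a count moved, not whether the members differed from other probes. With the values processed by the authors 4 members rose and 7 fell in OM, against 15 and 4. In OM the 19 calls became 64 without low OM male 6, of which 61 rose, and 33 without low OM female 6. Without the 5 fish that stood apart, 20 members rose and 8 fell in OM, and 4 rose and 16 fell in IM. High OM then held only males of the second scan day, and low OM held both sexes and both days. Sex and scan day were thus unequal between the OM levels in that fit. Over all 200 members the log2 change had a median of -0.31 in IM and 0.65 in OM, against -0.066 and 0.071 over all probes tested. The 16 called falls in IM had a median of -2.30 (-5.38 to -1.23) and the 15 called rises in OM a median of 1.52 (1.25 to 2.83).

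Ssa#GRASP209734305 had the second largest fall in IM, and the value rested on 1 fish. It was detected in 0 of 6 high IM and 4 of 8 low IM fish, with means of -7.48 (SD 0.90, n = 6) and -3.45 (SD 5.43, n = 8). Its signal in high IM was not well above background on any array. With high IM set at its detection limits and low IM at its measured values, high IM was 3.74-fold lower, and 1.11-fold lower without low IM male 5. Low IM also held undetected fish, whose values are not measured levels, so these ratios are not strict bounds. The log2 difference was -4.03 (SE 1.87, limma adjusted p = 0.327). Low IM male 5 had a signal of 8.84, the next low IM fish had -2.68, and without that male the difference was -2.27 and no longer passed. The call was also lost without high IM females 3 or 4, high IM males 1 or 2, low IM females 2 or 5, or low IM male 1. High IM was the only group with members undetected in all of its fish, 18 in number. It was also the smallest group and held female 1, with the fewest probes detected (8786). The same ratio ran from 0.494-fold to 3.74-fold over the 18, and a ratio under 1 shows no lower level. The share of all probes undetected throughout high IM was not counted, so the number is a description.

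Among the members called higher at the high level in OM, Ssa#KSS3392 and Ssa#S30293626 had the largest changes. Ssa#KSS3392 was detected in 9 of 9 high OM and 6 of 11 low OM fish, with signals of -3.59 to -0.01 and a median of -1.83 against -7.48 to 0.12 and a median of -6.24. It rose by 2.83 (SE 1.02, limma adjusted p = 0.141). Its IM groups had medians of -6.30 at the high and -5.50 at the low level. Ssa#S30293626 rose by 1.94 (SE 0.661, limma adjusted p = 0.123), from a median of -5.57 to -3.30 in OM, with 5 of 11 and 7 of 9 fish detected. The groups overlapped in both members. In males Ssa#KSS3392 was detected in 6 of 6 high OM and 5 of 5 low OM fish, with medians of -2.30 and -1.69, and in females in 3 of 3 and 1 of 6, with medians of -0.42 and -6.71. Ssa#S30293626 was detected in 4 of 6 and 4 of 5 males, with medians of -3.33 and -5.02, and in 3 of 3 and 1 of 6 females, with medians of -3.30 and -6.65. The 3 high OM females are all among the 5 fish that stood apart, and 4 of the 6 low OM females were scanned on the first day.

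The second comparison asked whether the mineral source was linked to detection. By Fisher's exact test at an unadjusted p under 0.05, 1 member was detected more often in IM fish (0.103%, and 0.159% of the 1891). Toward OM fish there were 6 (2.39% and 3.07%). After adjustment 0 members and 0 probes passed (0%), against 7 members before it. The difference in share had a median of -5.71 percentage points, with 122 members more often in OM and 76 in IM, against -7.14 over all 1891 probes. Sex and scan day were unequal between the sources. IM held 5 males and 9 females, and OM held 11 and 9. The second scan day held 8 IM and 14 OM fish, and the first held 6 of each. On the second day alone 113 members were more often in IM and 79 in OM, and on the first 71 and 80. The count of 7 became 11 without high IM male 1, 11 without low IM male 2 and 13 without low IM male 5. These changed counts lack the share of all probes and show only how the count moved. At the high level 15 members were more often in OM (1.86% of all probes tested, 4.49% of the 1891) and 3 in IM (0.118% and 0.317%). At the low level 2 were more often in OM (0.404% and 0.582%) and 3 in IM (0.185% and 0.212%). Without the 5 fish that stood apart, and so with no female in high OM, the mean share of members detected differed by -0.76 percentage points in place of -4.50.

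Ssa#TC109962 had the smallest p for the source. It was detected in 4 of 14 IM and 16 of 20 OM fish (two-sided Fisher's exact p = 0.00460, adjusted p = 1). Its signal had a median of -6.58 in IM (-8.62 to -1.02) and -2.12 in OM (-7.79 to -1.29), and the difference was the same way at both levels, with 2 of 6 against 7 of 9 and 2 of 8 against 9 of 11. Ssa#S32011890 was detected in 3 of 14 IM and 14 of 20 OM fish (exact p = 0.0134, adjusted p = 1), and its groups overlapped. Ssa#GRASP223648205 was the member more often detected in IM, with 10 of 14 against 6 of 20 fish (exact p = 0.0349, adjusted p = 1). Low IM accounted for 7 of these 10. It was the 1 member of the source comparison named here that lost its unadjusted p under 0.05 without the 5 fish. Over all alternative settings other than single fish left out, it lost that p in 6 and kept it in 1. Ssa#TC109962 and Ssa#S32011890 each lost it in 3 and kept it in 4.

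By signal, 3 members were higher in IM (0.272%) and 15 were lower (2.88%, and 9.73% of the 1891), and 0 members and 0 probes passed after adjustment with limma (0%), against 18 members at the unadjusted criteria. The median change was -0.48 over the members and -0.045 over all probes. The adjusted p of those 18 was 0.518 to 0.523. The log2 difference of Ssa#TC109962 was -2.58 (SE 0.794), the largest of the 18. The count became 45 without low IM male 5, 31 without high OM male 2, 30 without high OM male 7, 29 without low OM female 1 and 28 without low OM female 4. The share of all probes called in these fits is not given, so the changed counts are only a description.

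The third comparison was between the sexes, and here the members differed most. Males had 142.6 members detected (SD 34.9, n = 16, range 88 to 188) and females 83.2 (SD 47.7, n = 18, range 19 to 168). By Fisher's exact test 84 members were detected more often in males at an unadjusted p under 0.05 (16.5% of all probes tested, 35.5% of the 1891) and 0 more often in females (0.0146%). After adjustment 6 members passed (0.278%). The median difference was 30.9 percentage points over the members and 29.9 over all 1891 probes, so the members were close to other intermittently detected probes.

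Sex and scan day cannot be told apart for most of these fish, since the first day held females alone. Females had 66.6 members detected on the first day (SD 43.5, n = 12) and 116 on the second (SD 40.0, n = 6). Between these, 36 members were detected more often on the second day (2.70%, and 5.29% of the 1891). That count was 25 without high IM female 4, 24 without high IM female 6, 23 without high OM female 5 and 21 without low OM female 6. These changed counts are given without the share of all probes and are a description. Among the 16 males and 6 females of the second day, 4 members were more often detected in males (3.38%, and 7.3% of the 1891). The mean share of members detected was 71.3% in these males and 58.2% in these females.

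**Figure D5:**
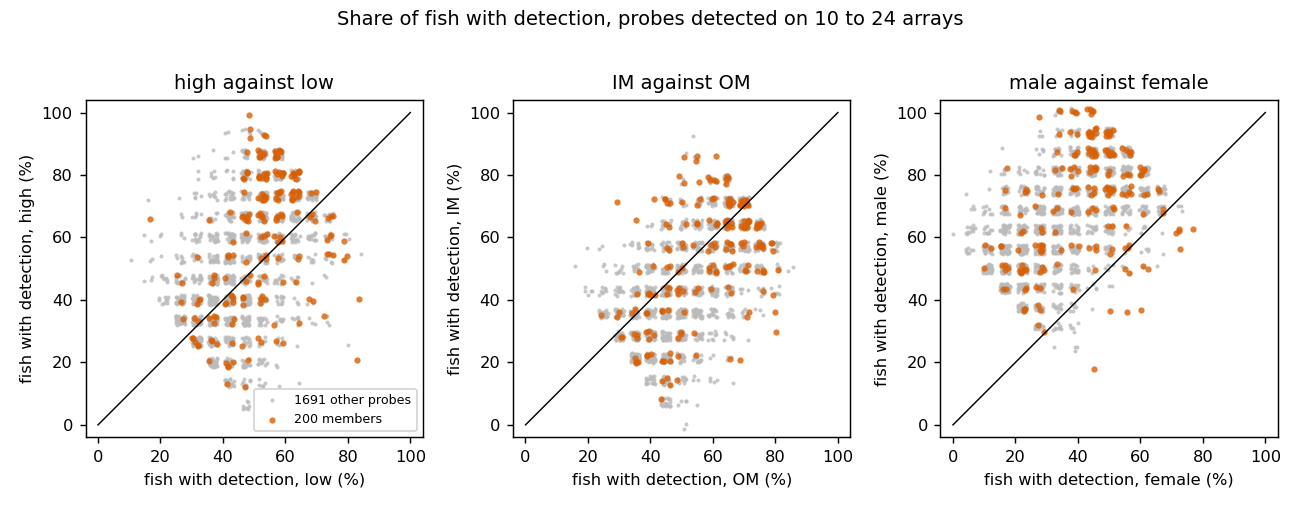
Share of fish with detection for each of the 200 members (orange) and the 1691 other probes detected on 10 to 24 arrays (grey), in percent, for high against low, IM against OM and male against female fish; points are spread by up to 1.5 points, and the line marks equal shares. Most members lay above the line for males, 187 of 200. They lay on both sides of it for the level, 127 above and 73 below, and for the source, 76 above and 122 below.

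By signal in the fit with limma, 46 members were higher in males (4.00%) and 1 was lower (1.55%), and 12 passed after adjustment (4.90%). The median change was 0.21 over the members and -0.0083 over all probes. A block for the scan day left 0 higher and 2 lower, and in the authors' own processed values 0 were higher and 22 lower. With the slide as a block 4 were higher and 55 lower. Since 5 of the 7 slides held 1 sex, that fit compared the sexes only on the others. The males there were all high OM, so its direction rests on few fish. The balance of directions thus changed with the scaling and the block. The share of all probes called in these fits is not given, so the changed counts are a description. Between females of the second and the first day 41 members were higher on the second at an adjusted p under 0.05 (7.43%), and 25 without low OM female 6.

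Both members named for sex also differed between the scan days within females. Omy#CA380613 was detected in all 16 males, in all 6 females of the second day and in 0 of the 12 females of the first day (16 of 16 against 6 of 18, two-sided Fisher's exact p = 3.72e-05, adjusted p = 0.0423). Its signal was -8.11 to -5.91 in the females of the first day, -1.77 to 0.11 in those of the second and -3.53 to 0.97 in males. The females of the first day did not overlap with the other fish. The females of the second day were higher than those of the first by 5.54 (SE 0.337, limma adjusted p = 2.04e-07), and males were higher than all females by 3.52 (limma adjusted p = 0.0156). Ssa#EG868838 was tied with Omy#CA380613 for the Fisher p, with the same counts in males and females, and was not named because ties went to the brighter member. It was detected in 2 of 12 females of the first day and 4 of 6 of the second, and the latter were higher by 1.26 (SE 0.364, limma adjusted p = 0.0370).

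Ssa#S37580919 was detected in 16 of 16 males, 5 of 6 females of the second day and 0 of 12 of the first (exact p = 9.84e-06, adjusted p = 0.0423). Its signal in these 3 sets had medians of -3.62, -4.03 and -5.91. Females of the second day exceeded those of the first by 1.93 (limma adjusted p = 0.00360), close to the 1.66 by which males exceeded all females (limma adjusted p = 0.0142). In all, 4 members were detected in no fish of the first day and 11 in every male. These 2 patterns were not counted over all probes, so the numbers are a description.

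No member was detected more often in females at an unadjusted p under 0.05. The nearest was Ssa#S48423318, with 8 of 18 females and 3 of 16 males (two-sided Fisher's exact p = 0.152), an order that turned for values present in the table of the authors (15.97 percentage points toward males). Its log2 signal was -1.88 in males relative to females (SE 0.816, limma adjusted p = 0.158). It was detected on both days, in 5 of 12 females of the first and 3 of 6 of the second.

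The response of the members to the mineral level differed between the sexes in this set of fish. Females had 116 members detected at the high level (SD 50.2, n = 7) and 62.5 at the low level (SD 33.8, n = 11). Males had 122 (SD 28.6, n = 8) and 164 (SD 28.1, n = 8), the opposite order. In a limma fit with sex, level and source, the response of females minus that of males was positive for 47 members at an adjusted p under 0.05 (3.43% of all probes, 10.5% of the 1891) and negative for 0. The differences were 2.31 to 5.91 log2 units with a median of 3.55. With the scan day as a block 44 passed, and with normexp or the values processed by the authors 0 did.

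This difference rested on few fish. Of the 47 members, 38 were among the 57 that were highest in the same 5 fish, which include all 3 females of high OM and 1 male in each low group. Within OM alone 79 members passed, all of them positive (12.8% of all probes, 30.9% of the 1891). Within IM alone 0 members and 0 probes passed by limma after adjustment (0%). At an unadjusted p under 0.05 there were 12 members, 215 of all 12883 probes and 69 of the 1891. Without the 5 fish 0 members passed within IM after adjustment. Whether the 2 sources differed was not tested. Without high IM male 2 the count was 0, without low IM male 5 it was 8, without high IM male 1 14, without high OM female 3 15, without low IM female 1 27, and without low OM male 3 77. High IM held 2 males, so leaving out 1 leaves a single fish that is assumed to vary like the rest. The counts with single fish left out are given without the share of all probes called in the same fits.

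Some members were on and off in the same fish. Over all pairs of members the median of phi, a correlation between detection calls, was 0.279 (19900 pairs). It was 0.0434 among members with a gap (153 pairs) and 0.308 among those without (16471 pairs). These pairs share the arrays and their depth, and the values are a description. In 22 pairs the calls agreed on at least 33 of the 34 arrays.

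The most alike pair was Omy#CA363897 and Ssa#S35500043, which agreed in all 34 fish and whose signals correlated with r = 0.923 over the 34 arrays. Both were detected in 16 of 16 males, 6 of 6 females of the second day and 1 of 12 of the first, a pattern like that of Omy#CA380613. Whether both probes read the same transcript cannot be seen from the identifiers.

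A group of 3 members, Ssa#S19107760, Ssa#S18848482 and Ssa#BQ035982, was also on or off together. All 3 were detected in 12 fish and none in 20, and the other 2 fish had 1 or 2 of them. The 12 fish were 2 of 6 high IM, 3 of 8 low IM, 2 of 9 high OM and 5 of 11 low OM, with 4 females of the first day, 0 of the second and 8 males. The signal of Ssa#S19107760 was -3.70 to 1.18 in the 13 fish where it was detected and at most -5.67 in the others. The group was named after its values were seen.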

How the data were processed

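Total RNA of 34 fish, 1 per array, was hybridised to 1-colour (Cy3) Agilent arrays, and groups and sexes were taken from the labels. The authors deposited scanner output of Agilent Feature Extraction 12.0.1.1, whose intensity values had the background subtracted by the software and were not scaled between arrays. A table of intensity values processed by the authors was used as an alternative. Control spots and 2160 spots marked as outliers (4 in members, 2 probes) were left out of the signal, and 0 spots were saturated. Detection was taken from the software's call whatever the outlier mark. If marked spots counted as undetected, 187 of the 200 members would be the same, and with marked spots kept in the signal 198 would be.

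From the deposited intensity, log2 values minus the 75th percentile of each array were computed. The linear models were run in limma 3.58.1 (R 4.3.3) on the 12885 probes detected on at least 6 arrays, with the 4 groups as terms, and all 200 members were in this fit. Fisher's exact test came from scipy 1.17.1. p-values were adjusted by Benjamini-Hochberg over all probes tested. The scripts were tested on simulated data. Each array is a separate fish, but diets were given by tank and fish shared tanks. The tests treat fish as independent and could not include the tank, so p-values for diet can be too small. The number of arrays limits the precision.

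Named by rule were the 3 brightest members, the 3 with the widest gap, up to 2 in each direction by Fisher p for level, source and sex, up to 2 rises and 2 falls within IM and OM, and the most alike pair. Others are said to be named after their values were seen. The members and lists were chosen with earlier results of these data known. Fits of the response by sex or source, of scan days within females, and without the 5 fish were added after seeing the data. As alternatives, normexp was used for the background (offset 50), arrays were quantile normalized, or the values came from the authors' table. Others were a floor at a common detection limit, other detection calls, blocks and covariates, single scan days or sexes, and single fish left out.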

Additional observations from a re-analysis of the deposited data

Results flagged for a closer look

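Of 61 sets of 4 to 10 fish (named members by diet group), 5 held a fish whose distance from the nearest other fish was large for the range of its group. Low OM held 11 fish, so its full sets lay outside this range and were not screened. The absence of low OM fish among the 5 sets is therefore not a result. The limit used passes about 1 in 20 sets of independent values with a normal spread. These members were chosen as on in some fish and off in others, and the same fish recur. That rate therefore does not apply here, and the 5 sets are a description. In low IM, male 5 stood above the rest in Ssa#GRASP209734305 with a log2 signal of 8.84 (next fish -2.68) and in Ssa#S32011890 with -3.76 (next -6.43). Male 2 was the lowest in Ssa#GRASP223648205 with -8.72 (next -4.33). That spot was undetected and lay at the lowest value of its array, so its distance from the other fish was not measured. In high OM, male 2 stood below in Ssa#S31998488 with -7.73 (next -4.02), and female 5 stood above in Ssa#S48423318 with -0.39 (next -4.63).

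The response to the mineral level differed between females and males for 47 members at a limma adjusted p under 0.05 (3.43% of all probes, 10.5% of the 1891). All were in the direction of a higher response in females. Within IM alone 0 members passed, and none passed with normexp or the authors' values. Of the 47, 38 were among the members highest in the same 5 fish, so the difference rested on few fish.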

How the results depend on the processing

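The counts of members called by signal were lower under a stricter threshold or a correction that raises dim signals. Counts in this section are given without the share of all probes called under the same setting, so they describe only how a count moved. They are given in the order IM level, OM level, level over both sources, source and sex, with main counts of 16, 19, 17, 18 and 47. At a Benjamini-Hochberg adjusted p under 0.05 they were 1, 0, 4, 0 and 12. With normexp they were 3, 3, 1, 1 and 2, and with a floor at the common detection limit 4, 4, 3, 3 and 1. The balance of directions turned for the source with normexp and with the floor and for sex with normexp. With the authors' values it turned for the level in OM (11, of which 4 rose and 7 fell) and for sex (22). The slide as a block gave 7 for the source and 59 for sex, though 5 of the 7 slides held 1 sex. The scan day as a block gave 26 for the level over both sources and 2 for sex, and the second scan day alone 3 for sex. Some fish numbers are shared between groups, and the labels do not say whether they pair the fish. Deviations correlated above 0.1 in 2 of 5 IM pairs and 2 of 7 OM pairs, too few to settle it. The main fits used no pairing. With sex and fish number together as a block the counts were 12, 12, 14 and 8 for the first 4 comparisons.

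The 47 members with a different response in females became 0 with normexp, 0 with the authors' values, 16 with the floor, 0 within IM and 79 within OM. The 41 members higher in females of the second day became 1, 15 and 9 under the same first 3 settings. Members with a difference in detection numbered 10 for level, 7 for source and 84 for sex. After adjustment these were 0, 0 and 6. With the software's call of positive and significant they were 3 for level and 21 for sex, and with a value present in the table of the authors as the call, 35 for level and 0 for source. With signal above a common limit they were 8, 4 and 24. On the second scan day alone they were 8, 3 and 4, and on the first 1 for source. In females alone the level gave 47 and in males alone 28, and the direction of the level turned with the software's call, the common limit, the second day and males alone. The mean share of members detected, high minus low, was 6.91 percentage points in all fish, -8.82 on the second day and -21.0 in males, and IM minus OM was -4.50 and on the second day 1.31. The values of 3 named members turned, Ssa#DN139054 in OM with normexp (0.077), and Ssa#S48423318 and Ssa#S47729521 between sexes by presence in the authors' table (15.97 and 27.1 points toward males). The cause was not tested.

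With single fish left out the signal counts were 12 to 20 (IM), 13 to 64 (OM), 13 to 22 (both), 14 to 45 (source), 40 to 54 (sex), 0 to 77 (response by sex) and 25 to 54 (females by day). Those for detection were 10 to 29 (level), 6 to 13 (source), 67 to 89 (sex) and 21 to 53 (females by day), and the share differences were 4.74 to 10.5, -7.00 to -1.16 and 27.8 to 32.2 points. Under the settings other than single fish left out, 70 values for comparisons kept their direction and stayed near the main value. Another 37 moved away from it and 15 turned. For the named members 112 values under those settings kept their reading, 49 were weaker and 3 turned. The number of arrays limits the precision, and values at an array's lowest value have no order.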
